A study of Homo sapiens with 15 samples.

Results

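The loci described here are the entries of the authors' deposited expression table that have a locus identifier beginning with XLOC_ in place of a gene symbol and carry no gene type. One such locus, XLOC_035785, was left out, which gave 2001 loci of 11230 entries, or 17.8%. The rule uses no measured value. Another 996 entries with an XLOC_ name are typed as protein-coding and are not among them. Neither are the 826 entries without a type that have a name beginning with CATG, which serve below as a comparison.

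The values come from HEK293FT cells, a fast-growing, readily transfected derivative of a human embryonic kidney line. All cells received dCas9-VP64, a catalytically dead Cas9 fused to a transcriptional activator, together with the MS2-p65-HSF1 activator protein and a pool of 5 guide RNAs. The 4 target groups, titled trex0108, trex4039, trex5008 and trex8168, had guides placed 50 to 450 bp upstream of the start of a TrEx long non-coding RNA, and the control group had non-targeting guides. Selection with 2 ug/mL puromycin began at 24 hours, polyadenylated RNA was taken at 48 hours, and each of the 5 groups had 3 libraries. The libraries titled trex5008 and trex8168 carry each other's number in their target labels, so these groups are named by title only. The cells were a bulk culture, in which fewer cells expressing a locus and less RNA per cell cannot be told apart. The table gives 1 mean normalised count per group, without a spread, so no SD is given and the depth per library is unknown. All entries passed the authors' threshold, an adjusted p under 0.1, in 1 or more of the 4 comparisons with control, so the entries are a selection of changed loci, and shares below are shares of that selection. Of 9 genes known from HEK293 cells that were looked up, 5 are listed, and of 8 markers of other cell types 1 is listed. Absence from a selection of changed loci says nothing on identity.

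Identifiers of this kind are given when overlapping transcript models are merged into loci and numbered along each strand of a chromosome. A merged locus is therefore a stretch of the genome on one strand rather than a single transcript, and a count for it sums all reads assigned to that stretch. A locus without a type can hold an RNA that no catalogue lists, or can span annotated genes that the merging joined so that no single name applied. CRISPR activation recruits activators near a start site, and the transcripts counted around it can include the targeted RNA, its neighbours and any RNA that responds later.

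The data went against reading these loci as short or faint transcripts. Their median span, from start to end, was 90.7 kb (quartiles 39.6 and 207.0 kb), against 47.9 kb for protein-coding entries and 6.83 kb for CATG-named entries. Of the 2001 loci, 944 spanned at least 100 kb, 32 spanned at least 1 Mb and 7 spanned under 1 kb. Their median level over the 15 libraries was a mean normalised count of 1767 in the authors' deposited table, with quartiles of 665 and 3882. The median was 1524 for protein-coding entries and 27.2 for CATG-named entries. A mean under 50 was found for 4.95% of the loci, 6.38% of protein-coding entries and 71.8% of CATG-named entries. Levels can be set against each other only per length, and per kb of span the medians were 18.6, 28.0 and 4.39. The span includes introns and gaps, so a value per kb of span is not a value per kb of transcript. Among the loci, span and level were weakly related (Pearson r of 0.15 between log10 span and log10 mean, over 2001 loci that share the same libraries).

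**Figure D1:**
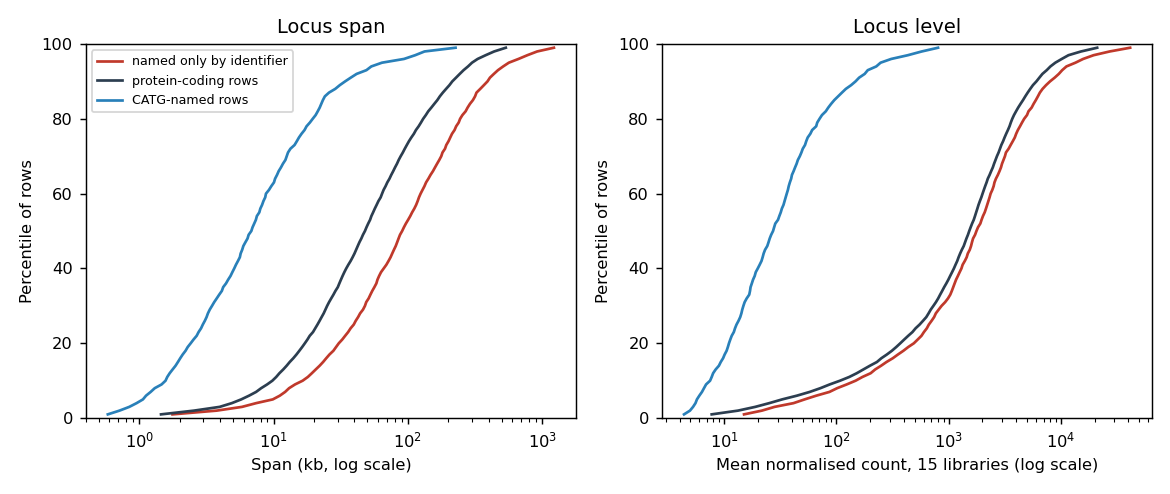
Cumulative distributions of span in kb (left) and of the authors' mean normalised count over 15 libraries (right), both on log axes, from the 1st to the 99th percentile for loci named only by identifier, protein-coding entries and CATG-named entries. The loci named only by identifier lie to the right of the other sets on both axes, with a median span of 90.7 kb and a median count of 1767.

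The most abundant locus, XLOC_067072, spans the mitochondrial chromosome from position 1 to 16577. Its mean normalised count in the authors' deposited table was 3757220, more than that of any other of the 2001 loci. The other mitochondrial locus, XLOC_067073, had a mean of 36572. The nuclear loci with the highest means were XLOC_054077 (chromosome 6, 31782930 to 31815804, hg19) at 163629, XLOC_012765 (chromosome 12, 6602479 to 6648504) at 128552 and XLOC_031135 (chromosome 19, 3773737 to 3990329) at 116977. The coordinates are 1-based, and the strand of a locus was read from the direction of its numbering. In GENCODE release 29, the genes on the strand of XLOC_012765 between its listed neighbours LTBR and COPS7A that have no entry of their own are CD27, TAPBPL, NCAPD2 and GAPDH. GAPDH encodes an abundant glycolytic enzyme. The table does not tie these genes to the locus, and a gene can also lack an entry because it was not among those selected.

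Short loci were among the nuclear loci with the highest levels per kb of span. XLOC_012483 (chromosome 11, 122928157 to 122934174) reached a mean normalised count of 11195 per kb and XLOC_028053 (chromosome 17, 79474429 to 79481933) 9794. The genes without an entry between the listed neighbours of XLOC_028053 are TMEM105 and ACTG1, the second of which encodes a cytoplasmic actin. Beside XLOC_065508 (chromosome 9, 136213579 to 136219624; 6842 per kb) the single such gene is RPL7A, a ribosomal protein gene. Over the whole set, 1953 loci had a listed, matched gene on both sides on their strand. Of these, 52 had no gene without an entry in between, 257 had 1, 681 had 2 to 4 and 963 had more than 4. The stretch counted runs between the listed neighbours, not between the ends of the locus, so these genes need not lie in it. As only changed entries are listed, genes without an entry can lie between the listed neighbours of any entry. No such count is given here for other kinds of entry. Genes were matched to entries by their current or older symbols. A gene whose entry has an unmatched name, or is one of the 996 protein-coding entries named only XLOC_, is counted as lacking one. A gene that shares an older symbol or synonym with another listed gene is counted as having one. The numbers of such genes can therefore err in both directions, and the gene names given here can be incomplete.

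Entries nested inside the loci were also set beside them. On the same strand, 125 protein-coding entries lay wholly inside 99 of the loci, and 122 of the 125 have a gene symbol. As 2 of them lay inside 2 loci each, this made 127 pairs of a nested entry and a locus. Several nested entries had low counts beside that of the locus around them. The nested entry for ACTB, the gene of cytoplasmic beta-actin, spanned 6.06 kb. Its mean normalised count was 26.0 in the authors' deposited table, inside XLOC_059373 with 69114. The nested entry for MCM7, a replicative helicase subunit, spanned 1.11 kb and had 3.26 inside XLOC_060294 with 18474. That for RERE, a transcriptional corepressor, spanned 40.9 kb and had 33.9 inside XLOC_003326 with 86354. These are counts of whole entries of unlike span, not levels per kb. Whether a nested entry covers the gene it is named for was not checked, so its count is not the level of that gene. Over the 127 pairs, the median of the nested means was 34.1, and the median share of the locus mean was 1.74%. In 69 pairs the nested entry had a mean under 50, and in 17 it had a mean above that of the surrounding locus. In the other nested pairs the locus without a name held the higher count.

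The loci were spread over the genome, with 1017 on the plus strand, 978 on the minus strand and 6 without a strand call, of which 2 are mitochondrial and 4 lie on unplaced sequences. Of the 2001, 786 (39.3%) shared at least 1 base with a listed protein-coding entry. The same overlap was found for 47.6% of CATG-named entries, and 36.8% of protein-coding entries overlapped another one. Where a locus overlapped several entries, that with the lowest locus number was taken, so the plus strand came first. The entry taken was on the opposite strand for 660 of the 786 and on the same strand for 126. At least 1 overlap on the same strand was found for 152 loci. The sources used here do not give how the counting treated strand. For the 660, reads of both strands may therefore not be fully separated.

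The 1209 loci that overlapped no listed protein-coding entry lay a median of 57.5 kb from the nearest one (quartiles 11.5 and 180.4 kb). Of these gaps, 127 were over 500 kb. Within 5 kb but without overlap, 80 loci lay downstream of the nearest protein-coding entry on its strand, 54 upstream on its strand, 39 upstream in divergent orientation and 20 in convergent orientation. With overlap included, 979 loci (48.9%) lay within 5 kb of a listed protein-coding entry. A nearest protein-coding gene that is missing from the selection is not counted, so distances to all genes are shorter than these or equal to them.

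After the authors' normalisation, the median level of the loci was nearly the same in each group. Normalisation scales libraries to each other and can by itself bring typical levels together. The medians of level and of fold change therefore cannot show whether total output changed. The median of the authors' mean normalised counts over the 2001 loci was 1751 in control, 1800.0 in trex0108, 1784 in trex4039, 1755 in trex5008 and 1795 in trex8168. Over all entries it was 1178 in control and 1217 in trex8168. The median deposited log2 fold change against control was 0.02 in trex0108, 0.04 in trex4039, 0.06 in trex5008 and 0.03 in trex8168, against 0.02, 0.03, 0.02 and 0.04 over all entries. The CATG-named entries had medians of -0.07, -0.30, -0.14 and -0.18. The 4 comparisons share the same control libraries, so their values are not independent of each other.

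**Figure D2:**
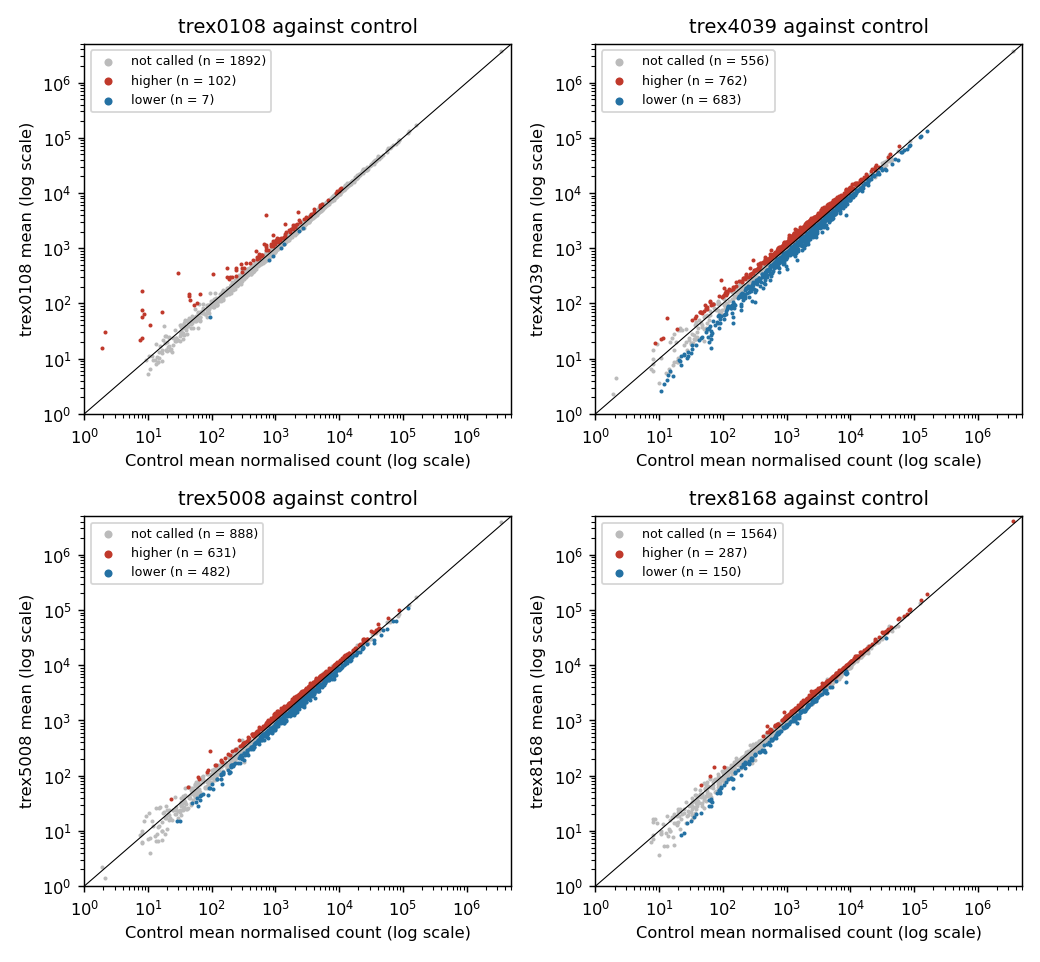
Mean normalised count of each of the 2001 loci in control (x axis) and in 1 target group (y axis), both on log axes, 1 panel per group, with loci called at the authors' adjusted p under 0.05 in red (higher) and blue (lower) and the diagonal marking equal means. Loci with a mean under 1 are off the axes. In trex0108 the called loci are 102 higher and 7 lower, whereas in trex4039 762 lie above and 683 below the diagonal.

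In trex0108, few of the loci changed, and nearly all that did rose. With calls made at 0.05 on the adjusted p of the authors' deposited table, 102 of the 2001 loci were higher and 7 lower. Over all entries 5.65% were higher and 0.249% lower, and the 102 and 7 are 5.1% and 0.35% of the loci, close to these background shares. At the authors' own threshold of 0.1, 15 were lower, with 0.481% over all entries. The median size of the called changes was 0.37 on the log2 scale, and 11 loci had a deposited log2 fold change of at least 1. Over all 11230 entries, 99 were called with a fold change of that size.

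XLOC_037754 (chromosome 2, 233250226 to 233286343) led these rises. Its mean normalised count was 29.1 in control, 359.8 in trex0108, 23.6 in trex4039, 22.5 in trex5008 and 28.2 in trex8168. The trex0108 group alone stood high, at 12.4 times the control mean, and the authors' deposited table gives a log2 fold change of 2.78 (adjusted p 1.27e-100). Its nearest listed protein-coding entry is ECEL1, an endopeptidase-like gene 56.2 kb away, which had a log2 fold change of 0.09 there (adjusted p 0.95). NPPC, which encodes a natriuretic peptide precursor, is the single gene without an entry between the listed neighbours PDE6D and ECEL1 on this strand. This rests on gene order alone, and the distance of NPPC from the locus was not measured.

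XLOC_057448 (chromosome 6, 170591226 to 170615649) had means of 715 in control, 3965 in trex0108, 675 in trex4039, 627 in trex5008 and 656 in trex8168. Again the trex0108 group alone was high, at 5.54 times control, with 2.33 on the log2 scale of the authors' deposited table (adjusted p 1.53e-249). In trex5008 the locus was called lower at -0.18 (adjusted p 0.0485 in the deposited table). It overlaps FAM120B, which lies on the opposite strand and had a log2 fold change of 0.09 with an adjusted p of 0.78 in the same comparison of the deposited table.

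XLOC_009760 (chromosome 11, 36317599 to 36503199) had means of 105 in control and 341 in trex0108, and between 115 and 120.0 in the other 3 target groups. The authors' deposited table gives it a log2 fold change of 1.42 in trex0108 (adjusted p 1.14e-35). The genes without an entry between its listed neighbours TRIM44 and RAG1 are LDLRAD3 and PRR5L. XLOC_059728 (chromosome 7, 38369944 to 38398736) went from 44.7 in control to 149 in trex0108 and stood at 69.1 in trex4039, 43.2 in trex5008 and 68.9 in trex8168. The calls of the deposited table for it were higher in trex0108 (1.19, adjusted p 1.38e-16), in trex4039 (0.38, adjusted p 0.0191) and in trex8168 (0.39, adjusted p 0.0398), so this locus rose in 3 of the 4 groups. XLOC_008722 and XLOC_010041 followed, with means of 44.5 and 172 in control and 135 and 431 in trex0108 (deposited log2 fold changes 1.13 and 1.12). Neither was called in another group.

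Falls in trex0108 were small. Apart from XLOC_019013, described below, the named falls ran from -0.34 for XLOC_003340 to -0.20 for XLOC_049585 (adjusted p 0.032) in the authors' deposited table. XLOC_053328 (chromosome 5, 176945454 to 176981564) had means of 2688 in control, 2279.6 in trex0108, 2089 in trex4039, 2348 in trex5008 and 2517 in trex8168. It was below control in each group and was called lower in trex0108, trex4039 and trex5008 at log2 fold changes of -0.23, -0.35 and -0.19 in the deposited table.

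In trex4039 most of the loci passed the authors' threshold, in both directions, and nearly all changes were small. The authors' deposited table calls 762 higher and 683 lower at 0.05, or 38.1% and 34.2%, where 37.1% and 33.7% of all entries were called. The median size of the called changes was 0.29 on the log2 scale. Only 2 loci, both lower, reached a deposited log2 fold change of 1 in size. Over all 11230 entries, 15 called lower and 1 called higher reached it. By the ratio of the group means, which lies farther from 0 than the deposited fold change, 5 called loci (0.25%) were at least 1 log2 unit higher and 40 (2.0%) at least 1 lower. Over all entries, 0.606% were called and at least 1 log2 unit higher by that ratio, and 4.92% were called and at least 1 lower.

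The 6 named falls in trex4039 were of loci with means over all libraries from 98.4 to 6096. XLOC_067132 (chromosome X, 1511314 to 1533690) had means of 1439 in control, 1344 in trex0108, 604 in trex4039, 965 in trex5008 and 883 in trex8168. Its level in trex4039 was 42.0% of control (log2 fold change -1.15, adjusted p 2.92e-46 in the authors' deposited table), and trex5008 and trex8168 lay between. It overlaps SLC25A6, a mitochondrial ADP/ATP carrier gene, on the opposite strand, which was lower in trex4039 with -0.22 (adjusted p 0.0013) in the deposited table.

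XLOC_069382 (chromosome X, 133674039 to 133683674) went from 999 in control to 899 in trex0108, 428 in trex4039, 666 in trex5008 and 786 in trex8168. It fell by 1.10 on the log2 scale in trex4039 (adjusted p 7.74e-38, authors' deposited table) and was also called lower in trex5008 and trex8168. PLAC1, the nearest protein-coding entry, lies 13.4 kb away on the same strand and was not called in trex4039 (0.15, adjusted p 0.27 in the deposited table). XLOC_010097 (chromosome 11, 65154070 to 65243278), the most abundant of the named falls, had means of 8380.2 in control, 7608 in trex0108, 3968 in trex4039, 5535 in trex5008 and 4989.8 in trex8168. The trex4039 mean was 47.3% of control, at -0.90 on the deposited log2 scale (adjusted p 3.32e-15). XLOC_062589, XLOC_053363 and XLOC_030435 completed the named falls, with -0.98, -0.94 and -0.91 in the authors' deposited table.

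Among loci named for a rise in trex4039, the highest deposited log2 fold change was 0.71. The shortest of the risen loci, XLOC_040853 (chromosome 22, 22929664 to 22930281; 0.618 kb), had means of 93.2 in control, 157 in trex0108, 263 in trex4039, 275 in trex5008 and 88.7 in trex8168. Its levels in trex4039 and trex5008 were 2.82 and 2.95 times control, with deposited log2 fold changes of 0.71 (adjusted p 5.5e-06) and 0.74 (adjusted p 3.91e-06). These are much smaller than the log2 ratios of its means, 1.49 and 1.55 with a pseudocount of 1. The spread between libraries is unknown, so the times-control values are uncertain. XLOC_040853 was not called in trex0108 (0.33, adjusted p 0.424) or trex8168 (-0.02, adjusted p 0.949) in the authors' deposited table. XLOC_028583 (chromosome 18, 52384923 to 52563839) rose from 104 to 193 in trex4039 (0.69 in the deposited table) and lies 2.79 kb from CCDC68, which rose there by 0.43 (adjusted p 0.00036). XLOC_002440, XLOC_057774, XLOC_042940 and XLOC_050387 followed at 0.68, 0.66, 0.61 and 0.57. The first 3 of these had means of at least 560.2 in control, so these rises were not of faint loci alone.

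In trex5008 the authors' deposited table calls 631 of the loci higher and 482 lower, out of 1972 with an adjusted p. These are 32.0% and 24.4%, and the shares over all entries were 29.8% and 24.3%. The median called change was 0.23 log2 units in size, and none reached 1. Over all 11230 entries, 1 called higher and 1 called lower reached it. XLOC_001213 (chromosome 1, 84543675 to 84835617) had means of 1074 in control, 1112 in trex0108, 1619 in trex4039, 1512 in trex5008 and 1178 in trex8168. It stood high in trex4039 and trex5008, with deposited log2 fold changes of 0.56 and 0.46 (adjusted p 3.9e-15 and 3.89e-10). XLOC_020936, XLOC_037321 and XLOC_009915 had fold changes of 0.44, 0.43 and 0.42 in the deposited table.

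The largest fall in trex5008 was that of XLOC_053363 (chromosome 5, 179089656 to 179108944), which was also among the largest in trex4039 and trex8168. Its means were 144 in control, 137 in trex0108, 56.7 in trex4039, 69.2 in trex5008 and 85.8 in trex8168. In trex4039, trex5008 and trex8168 it lay well under control, with deposited log2 fold changes of -0.94, -0.77 and -0.56, while trex0108 (-0.06, adjusted p 0.999) did not pass in the authors' deposited table. XLOC_039769 (chromosome 20, 60878406 to 60942368) fell from 2833 to 1741 in trex5008 and to 1614 in trex4039 (-0.65 and -0.74 in the deposited table). XLOC_013559 (chromosome 12, 57521973 to 57610198) fell from 4224 to 2538 and 2363 (-0.61 and -0.69). It overlaps STAT6, a cytokine-responsive transcription factor gene on the opposite strand, which fell by 0.23 in both groups in the authors' deposited table. XLOC_069502, XLOC_022836 and XLOC_003182 had -0.60, -0.59 and -0.59 in trex5008 and span between 1.17 and 2.09 kb.

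In trex8168 the authors' deposited table calls 287 of 1983 loci higher and 150 lower, which is 14.5% and 7.56%, with 14.6% and 6.45% over all entries. At an adjusted p under 0.01 the counts were 116 and 76, with 6.42% and 2.69% over all entries. The median size of the called changes was 0.22. The largest rise was that of XLOC_016309 (chromosome 13, 29394121 to 30080864), with means of 71.9 in control, 81.4 in trex0108, 82.2 in trex4039, 77.6 in trex5008 and 145 in trex8168. Only trex8168 stood apart, at 2.02 times control (deposited log2 fold change 0.76, adjusted p 3.1e-07). MTUS2 and UBE2L5 are the genes without an entry between its listed neighbours POMP and USPL1.

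XLOC_045090 (chromosome 3, 105363242 to 105588386) was high in both trex0108 and trex8168. The means were 497 in control, 899.8 in trex0108, 529 in trex4039, 536 in trex5008 and 808 in trex8168. Its deposited log2 fold changes were 0.76 (adjusted p 3.12e-15) in trex0108 and 0.62 (adjusted p 2.27e-09) in trex8168, and it was not called in the other 2 groups. XLOC_054033 (chromosome 6, 30844198 to 30871194) went the other way in a pair of groups. It rose from 2404 to 3349 in trex8168 and was 2091 in trex5008, with deposited log2 fold changes of 0.46 (adjusted p 7.83e-12) and -0.19 (adjusted p 0.00638). Among the falls in trex8168 were XLOC_067132 (-0.65), XLOC_004187 (-0.63), XLOC_010097 (-0.62) and XLOC_029787 (-0.61) in the authors' deposited table. All 4 were also lower in trex4039, at log2 fold changes of -1.15, -0.79, -0.90 and -0.87. XLOC_004187 (chromosome 1, 65434819 to 65533459) lies 2.18 kb upstream of JAK1, a cytokine receptor kinase gene, which was higher in trex4039 with 0.16 (adjusted p 0.0066) while the locus fell.

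**Figure D3:**
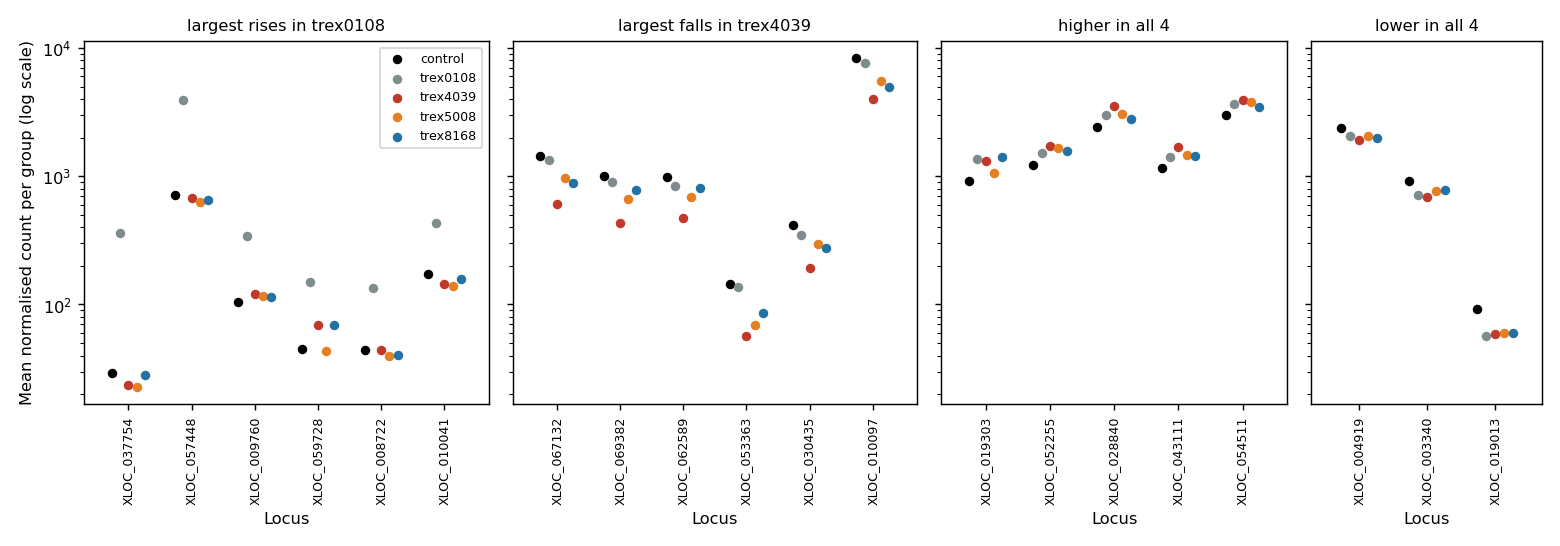
Mean normalised count per group (log axis) for the 6 largest rises in trex0108, the 6 largest falls in trex4039 and the loci called in 1 direction in all 4 comparisons; each point is the authors' mean of 3 libraries and has no error bar because the table gives no spread. For the 6 rises the trex0108 point stands above the other 4 groups, from 359.8 against 29.1 in control for XLOC_037754 to 431 against 172 for XLOC_010041.

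Of the 2001 loci, 258 were called in no comparison at 0.05, 676 in 1, 782 in 2, 276 in 3 and 9 in 4. These are 12.9%, 33.8%, 39.1%, 13.8% and 0.45% of the loci, and over all entries the shares were 14.2%, 37.3%, 35.8%, 12.3% and 0.419%. Among the 9, 5 were higher in every group, 3 were lower in every group and 1 was mixed. These are 0.25%, 0.15% and 0.05% of the loci, where the shares over all entries were 0.267%, 0.0712% and 0.0801%. The mixed one, named after its values were seen, is XLOC_037514 (chromosome 2, 218621555 to 218898705), with means of 927 in control, 1115 in trex0108, 1079 in trex4039, 754 in trex5008 and 776 in trex8168. The authors' deposited table calls it higher in trex0108 and trex4039, at log2 fold changes of 0.25 and 0.21, and lower in trex5008 and trex8168, at -0.28 and -0.23. Its nearest protein-coding entry, RUFY4, starts 0.858 kb away in divergent orientation and had a log2 fold change of 5.23 in trex0108 in that table, so a strong rise at RUFY4 stood beside a rise of 1.2 times at the locus.

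Of the 5 loci higher in every group, 4 had their highest mean in trex4039, and XLOC_019303 had its highest in trex8168. XLOC_019303 (chromosome 14, 26881609 to 27067478) had means of 914 in control, 1372 in trex0108, 1318 in trex4039, 1063 in trex5008 and 1419 in trex8168. The increase was least in trex5008 (0.21) and reached 0.60 in trex8168 on the deposited log2 scale. NOVA1, which encodes a neuronal splicing regulator, is the single gene without an entry between its listed neighbours STXBP6 and PRKD1. XLOC_028840, XLOC_043111 and XLOC_054511 had their highest means in trex4039, at 3527, 1698 and 3903 against 2438, 1158 and 3012 in control.

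Of the 3 loci lower in every group, XLOC_019013 (chromosome 14, 100070675 to 100150477) had the closest agreement among targets. Its means were 92.4 in control, 56.4 in trex0108, 59.0 in trex4039, 60.4 in trex5008 and 59.4 in trex8168, with deposited log2 fold changes between -0.48 and -0.43 and adjusted p from 0.00439 to 0.0195. All 4 comparisons use the same 3 control libraries, so a high control mean would give 4 falls at once, and whether it did was not tested. The locus starts 0.131 kb from CCDC85C in divergent orientation. XLOC_003340 had means of 918 in control, 714 in trex0108, 687 in trex4039, 768 in trex5008 and 775 in trex8168, and XLOC_004919 had 2381, 2068, 1924, 2044 and 1984 in the same order. For both loci trex4039 was the lowest group.

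Longer loci tended to rise and shorter ones to fall in trex4039 and trex5008. The 2001 loci were divided by span into 4 classes of 501, 500, 500 and 500, with borders at 39.6, 90.7 and 207.0 kb. Medians of the deposited log2 fold change in trex4039 were -0.21 in the shortest class, -0.06 in the second, 0.13 in the third and 0.19 in the longest. The calls turned over with it, from 81 higher and 268 lower in the shortest class to 275 higher and 85 lower in the longest. In trex5008 the medians were -0.12, -0.01, 0.10 and 0.13, and the calls went from 81 higher and 165 lower to 193 higher and 49 lower. No such order was seen in trex8168, where the medians ran only from 0.02 to 0.04 over the classes. In trex0108 they rose in the same order over a narrower range, at -0.01, 0.01, 0.03 and 0.04.

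Over all 2001 loci, Pearson's r between log10 span and the deposited log2 fold change was 0.33 in trex4039, 0.28 in trex5008, 0.13 in trex0108 and 0.04 in trex8168. The protein-coding entries gave 0.38, 0.32, 0.06 and 0.12. In trex4039 the protein-coding entries went from 306 higher and 924 lower in their shortest span class to 1130 higher and 258 lower in their longest, so the relation was not particular to loci without a name. These points share their libraries, and base composition, which can vary with span, was not analysed here because no genome of the table's build was at hand.

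**Figure D4:**
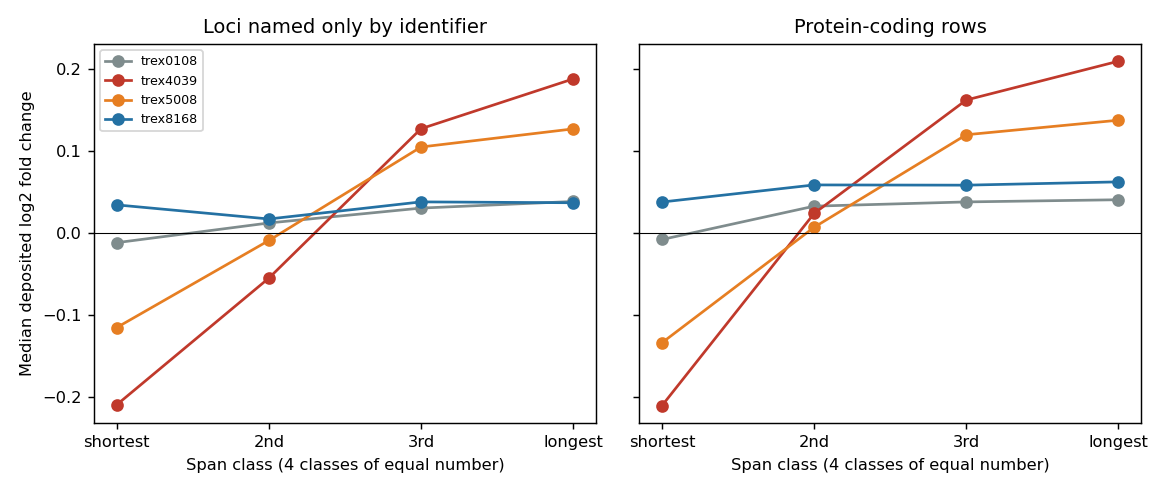
Median deposited log2 fold change (y axis) in the 4 classes of span (x axis) for the loci named only by identifier (left) and for protein-coding entries (right), 1 line per target group; no error is drawn because the table gives none. In both panels the trex4039 and trex5008 lines rise from below 0 to above 0, and the trex0108 and trex8168 lines stay between -0.01 and 0.06.

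In trex8168 the calls followed the level of the loci rather than their span. Divided in the same way by mean over all libraries, the class with the lowest means had 13 loci higher and 71 lower in the authors' deposited table. The counts were 52 and 40 in the second class, 88 and 29 in the third and 134 and 10 in the class with the highest means. Protein-coding entries went the same way, from 94 higher and 139 lower in their class with the lowest means to 535 and 33 in that with the highest. The median log2 fold change went from -0.07 to 0.10, and Pearson's r with log10 mean was 0.40 in trex8168, against 0.16 in trex4039, 0.18 in trex5008 and 0.02 in trex0108. Protein-coding entries had r of 0.37 in trex8168. The mean over all libraries includes the group compared, so level and change are not independent measures. Among the most abundant loci, XLOC_054077, XLOC_012765 and XLOC_022026 were called higher in trex8168, at 0.28, 0.22 and 0.26 in the deposited table. XLOC_067072, the mitochondrial locus, was also called, with means of 3509460 in control, 3686370 in trex0108, 3659890 in trex4039, 3855980 in trex5008 and 4074400 in trex8168 (0.21 in trex8168, adjusted p 0.00495 in the authors' deposited table). XLOC_031135 and XLOC_003326, also among the most abundant, were not called there, at 0.12 (adjusted p 0.0687) and 0.14 (adjusted p 0.162) in that table.

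The direction of change also differed between chromosomes. In trex4039, 75 of 108 loci on chromosome 16 were lower and 18 higher in the authors' deposited table, and their median log2 fold change was -0.27. On chromosome 19 the counts were 92 lower and 20 higher of 139 (median -0.25), and on chromosome 22 they were 30 lower and 3 higher of 42 (median -0.20). Chromosome 18 stood at the other end, with 21 of 28 loci higher and 5 lower (median 0.28). On chromosome 2, 83 of 153 loci were higher and 28 lower (median 0.18), and on chromosome 4 38 of 68 were higher and 10 lower (median 0.20). The protein-coding entries of these chromosomes leaned the same way. On chromosomes 16, 19 and 22, 56.2%, 65.6% and 55.7% of them were lower, where the loci had 69.4%, 66.2% and 71.4%. On chromosomes 18, 2 and 4, 75.5%, 54.0% and 66.8% of them were higher, where the loci had 75%, 54.2% and 55.9%.

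In trex5008 the loci on chromosomes 19, 16 and 22 again had the lowest medians, at -0.15, -0.19 and -0.18, and chromosome 18 the highest, at 0.20, in the authors' deposited table. Loci on chromosomes 19 and 16 were also shorter, with median spans of 42.6 and 58.3 kb against 90.7 kb over all loci, so the chromosome and the span were not separated here. The chromosome medians of these loci followed those of the protein-coding entries on the same chromosome. Over the 23 chromosomes with at least 20 of the loci, Pearson's r between both medians was 0.90 in trex4039, 0.88 in trex5008, 0.86 in trex0108 and 0.73 in trex8168, with both sets taken from the same libraries. Chromosome 7 was an exception in trex4039, with a median of -0.14 for the loci and 0.14 for protein-coding entries. The medians also differed in sign there on chromosomes 9 (-0.003 and 0.05) and 21 (0.05 and -0.05), in the same order. In trex5008 they differed in sign on chromosomes 7 (-0.04 and 0.06), 20 (0.02 and -0.11) and 21 (0.11 and -0.05).

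**Figure D5:**
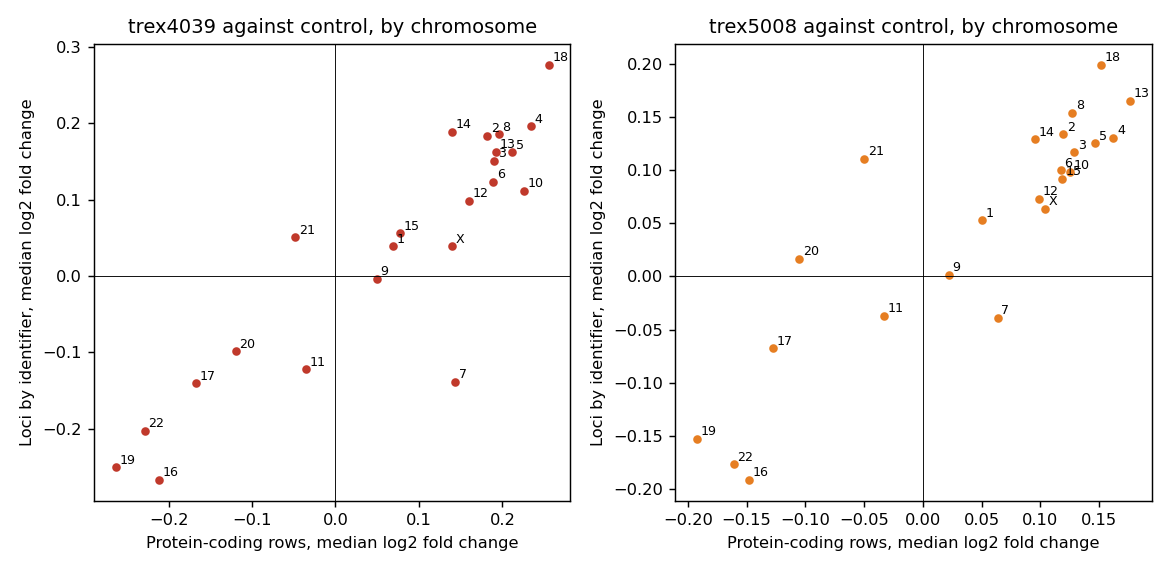
Median deposited log2 fold change per chromosome for protein-coding entries (x axis) and for the loci named only by identifier (y axis) in trex4039 (left) and trex5008 (right); each point is 1 chromosome with at least 20 of the loci. Chromosomes 16, 19 and 22 lie lowest and chromosome 18 highest on the y axis in both panels, and chromosome 7 lies off the diagonal in trex4039.

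Loci near a listed protein-coding entry mostly changed in its direction where both were called. In trex4039, 565 loci within 5 kb of such an entry, overlap included, were called together with it, and 480 (85.0%) had the same sign in the authors' deposited table. At more than 50 kb the count was 249 of 325 (76.6%). In trex5008 the counts were 301 of 332 (90.7%) near and 134 of 193 (69.4%) far, and in trex8168 they were 38 of 53 (71.7%) near and 19 of 30 (63.3%) far. In trex0108 only 7 near pairs and 2 far pairs were called, all with the same sign. Calls in trex0108 were nearly all rises, with 102 loci higher and 7 lower, and 411 protein-coding entries higher and 17 lower. A shared sign was therefore nearly fixed in advance. Calls in trex8168 also leaned to rises (287 loci higher and 150 lower, 1211 protein-coding entries higher and 333 lower), which by itself brings same signs. In trex8168 the share from 5 to 50 kb was 13 of 14 (92.9%), above the near share. Of the 565 near pairs in trex4039, 448 overlapped, 369 of them on opposite strands, where reads of both strands may not be fully separated. No such share is given here for other kinds of entry, so it is not shown to be particular to these loci. Chromosome-wide and span-related trends also bring same signs, and their part in these shares was not tested.

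Without a call threshold, trex4039 and trex5008 had higher correlations up to 50 kb than beyond it. Pearson's r between the log2 fold changes of a locus and of its nearest protein-coding entry in trex4039 was 0.57 with overlap, 0.51 up to 5 kb, 0.55 from 5 to 50 kb, 0.34 from 50 to 500 kb and 0.22 beyond 500 kb. The values in trex5008 were 0.56, 0.51, 0.48, 0.24 and 0.25. In trex8168 they stayed between 0.03 and 0.16, and in trex0108 between -0.01 and 0.24. Several loci can share 1 nearest entry, and all values come from the same libraries. A locus overlapping several entries was paired with that of the lowest locus number, so the strand split below rests on that order. Among overlapping pairs in trex4039, 318 of 369 on opposite strands (86.2%) and 65 of 79 on the same strand (82.3%) had the same sign. In trex5008 the counts were 212 of 235 (90.2%) and 29 of 30 (96.7%), and in trex8168 they were 28 of 35 (80.0%) and 3 of 8 (37.5%), in the same order.

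Some abundant loci beside protein-coding entries rose and others fell, and not all moved with their neighbour. XLOC_031135 had 0.01 in trex0108, where NMRK2, which it overlaps on the opposite strand, had 1.93 in the authors' deposited table. XLOC_054077 had -0.26 in trex4039, where the paired entry, overlapping on the opposite strand, had 0.07 (adjusted p 0.58 in that table). The pairs described next moved in the same direction. XLOC_031298 (chromosome 19, 10235078 to 10362457), 0.12 kb from MRPL4 in divergent orientation, had means of 14693 in control, 14526 in trex0108, 12278 in trex4039, 13245 in trex5008 and 14876 in trex8168. It fell in trex4039 by 0.25 on the deposited log2 scale, and MRPL4, a mitochondrial ribosomal protein gene, fell by 0.41. XLOC_011156 (chromosome 11, 10817801 to 10831241), 1.28 kb downstream of ZBED5, had a mean of 41206 in control and 50826 in trex4039. It rose by 0.29 in the authors' deposited table, and ZBED5 rose by 0.26. The matching of symbols left LYVE1 and MRVI1 as genes without an entry between the listed neighbours RNF141 and ZBED5. Neither was placed at XLOC_011156, and a gene that shares a synonym with a listed one can be missing here. XLOC_038982 (chromosome 20, 5027409 to 5107322) lies 0.068 kb from CDS2 in divergent orientation. Both were higher in trex8168, at 0.22 each in the deposited table, and PCNA, the replication clamp gene, is among the 4 genes without an entry around the locus.

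The longest loci changed little. XLOC_065707 (chromosome 9, 8295487 to 10613403), which spans 2318 kb, had means of 474 in control, 471 in trex0108, 566 in trex4039, 516 in trex5008 and 428 in trex8168. XLOC_059115 (chromosome 7, 145812827 to 148122484) and XLOC_045197 (chromosome 3, 115484144 to 117716711) had means of 1415 and 913 in control and of 1615 and 1118 in trex4039. All 3 were called higher in trex4039 alone, with deposited log2 fold changes of 0.23, 0.18 and 0.27. The shortest loci were XLOC_008314 (0.412 kb), XLOC_040853, described above, and XLOC_030746 (0.777 kb). XLOC_008314 and XLOC_030746 had means over all libraries of 28.1 and 29.2 and were called in no comparison at 0.05 in the authors' deposited table.

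The locus farthest from any listed protein-coding entry was XLOC_017597 (chromosome 13, 66873185 to 67872542), 4078 kb from DACH1. Its means were 1100.2 in control, 1168 in trex0108, 1267 in trex4039, 1114 in trex5008 and 1146 in trex8168, and only trex4039 was called (0.19, adjusted p 0.0391 in the authors' deposited table). XLOC_042892 (chromosome 3, 76546934 to 76792605), 3636 kb from SHQ1, had means of 44.9 in control, 113 in trex0108, 23.6 in trex4039, 39.8 in trex5008 and 21.0 in trex8168. The authors' deposited table calls it higher in trex0108 (0.86, adjusted p 1.01e-07) and lower in trex4039 (-0.43, adjusted p 0.00975) and trex8168 (-0.49, adjusted p 0.0106). The faint XLOC_066019, 3564 kb from CBWD7, had means of 10.6 in control and 2.63 in trex4039, which is 24.9% of control, and was called lower there (-0.28, adjusted p 0.0255 in the deposited table).

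Abundant loci were also found among the 258 called in no comparison at 0.05. XLOC_041798 (chromosome 22, 39699027 to 39716379) had means of 44182 in control, 45673 in trex0108, 39169.5 in trex4039, 46008 in trex5008 and 47847 in trex8168. The genes without an entry around it are CBX7, PDGFB and RPL3, the last a ribosomal protein gene. XLOC_025055 and XLOC_065508 had means over all libraries of 41857 and 41369. Their largest deposited log2 fold changes in size were -0.12 and 0.19, which did not pass 0.05, and the interval around them cannot be given without the errors.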

How the data were processed

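RNA-seq of 15 HEK293FT libraries was used as 1 table. The submitters' processing notes name DESeq2 1.14.1, DESeq, Cufflinks, STAR 2.5.1b, Bowtie2 2.2.1 and bedtools, and the builds hg19 and GRCh37, without role or order. The signal columns are mean normalised counts per group, as the authors deposited them. The log2 columns are the authors' deposited fold changes against control, which lie closer to 0 than the log2 ratio of means. The p-value columns hold adjusted p, deposited by the authors, whose own calls equalled an adjusted p under 0.1 in every entry. No column holds values per library, so no count model was fitted and replicates could not be left out.

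The members, lists and tests were chosen with earlier results of these data known. Entries were called at an adjusted p under 0.05. Spans and gaps came from the table's coordinates (starts counted from 0, printed from 1). Locus numbers rise along each strand, and the strand read from them equalled that of GENCODE release 29 in 5754 of 5817 matched protein-coding entries (98.9%). GENCODE gave names, strand and gene order only, because its build differs. Python 3.11.15, pandas 2.3.3 and numpy 2.4.6 were used, and scripts were tested on simulated data.

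Named loci were those with the 6 largest rises and falls per comparison (mean at least 50), the highest levels, the same call in all 4 comparisons, the longest, shortest and farthest, abundant loci called nowhere, and abundant loci beside protein-coding entries. Nested entries and XLOC_037514 were named after their values were seen. Alternatives changed the threshold, the fold change, the filter and the definition of near. One locus was left out by the rule of choice, some named loci and neighbouring genes are not reported here, and no sequences are printed.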

Additional observations from a re-analysis of the deposited data

How the results depend on the processing

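Of 81 named log2 fold changes, 81 kept their sign as the log2 ratio of group means with a pseudocount of 1 or 0.1, and 71 also passed an adjusted p under 0.01. At the authors' own threshold of 0.1 the falls in trex0108 went from 7 to 15. At 0.01 the trex8168 calls went from 287 to 116 higher and from 150 to 76 lower. Counted on the same strand only, 152 loci overlapped a listed protein-coding entry, and 50 lay wholly inside one, against 786. The median gap of 57.5 kb became 98.6 kb on the same strand, 52.4 kb to entries of any type and 141.1 kb between start sites. The same-sign share near protein-coding entries in trex4039 was 80.9% on the same strand, against 85.0%. Divided by span, the median levels were 18.4 in control, 18.5 in trex0108, 18.6 in trex4039, 18.5 in trex5008 and 18.6 in trex8168 per kb. With a mean of at least 50 they were 1907, 1922, 1894, 1891 and 1949. Both alternatives that turned a correlation near 0 were chosen after seeing the data. With the ratio of means, r between level and change in trex0108 was -0.038, and with a mean of at least 50, r between span and change in trex8168 was -0.019. The causes were not tested. Leaving out replicates and using RefSeq genes of the table's build were not run. No paired analysis was possible because the table holds no values per library.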
